A study of Mus musculus with 94 samples.

Results

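The 10 genes described here encode heat-shock chaperones and the co-chaperones that work with them. They were taken as a list of names (Hspa8, Hsp90ab1, Hsp90aa1, Dnajb1, Dnaja1, Hspd1, Hspe1, Hspa9, Hspa4 and Hsp90b1), and all 10 were found among the 13244 genes of the deposited expression table. The table holds 94 mouse haematopoietic stem cells of the C57BL/6 strain, 46 labelled Ski-KO and 48 labelled Ski-WT. All of them derived from fetal liver, had been transplanted for 6 months and were sorted from bone marrow, before capture on a Fluidigm C1 chip, as SLAM cells. That gate keeps donor-type, lineage-negative cells with c-Kit, Sca-1 and Cd150 on their surface and without Cd48. The labels name neither the Ski allele or how it was deleted, nor the animals that gave or received the cells. They give no age. The Ski-KO cells carry the label prefixes 051716 (27 cells) and 051816 (19 cells) and the Ski-WT cells the prefix 061016 (48 cells), so prefix and genotype cannot be told apart. Each genotype was therefore treated as 1 sample, cells were not used as replicates, and no test between genotypes was made.

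Chaperones bind unfolded or partly folded proteins and help them reach or keep their shape. Hsp70 proteins hold short hydrophobic stretches in a cycle driven by ATP, J proteins such as Dnajb1 and Dnaja1 bring the clients and start ATP hydrolysis, and exchange factors such as Hspa4 release them. Hsp90 proteins take over many signalling clients at a later folding step. Heat or other protein damage activates the transcription factor Hsf1, which binds heat shock elements made of alternating GAA and TTC units and raises the inducible chaperone genes, while the constitutive genes supply the chaperones of unstressed cells. In stem cells protein synthesis is known to be low and protein quality closely watched. The members were divided by textbook roles into inducible cytosolic (Dnajb1, Hsp90aa1, Dnaja1), constitutive cytosolic (Hspa8, Hsp90ab1, Hspa4) and mitochondrial genes (Hspd1, Hspe1, Hspa9), with Hsp90b1 in the endoplasmic reticulum. The inducible genes are also transcribed without stress, so these are groups of degree.

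Promoter windows from RefSeq on GRCm38.p6, a different build from the mm9 named for these data, reach from 250 bases before a start site to 50 after it. They were found for 6 of the 10 members, 10 windows in all. No window was found for Hspa8, Hsp90ab1, Hsp90aa1 or Hspa9, so these genes were not searched. Hspd1 and Hspe1, which encode the mitochondrial chaperonin and its co-chaperonin, are divergent neighbours with start sites 216 bases apart in these windows. Their shared region holds the only match among the 6 members searched to a heat shock element of 3 units. The same 30 bases are shown as read towards each gene, with the units in capitals, because it lies before both starts.

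Hspe1: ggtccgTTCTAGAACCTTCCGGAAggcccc

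Hspd1: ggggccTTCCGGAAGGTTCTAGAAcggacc

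The stretch lies at chr1:55088053-55088082, on the plus strand for Hspe1 (95 to 66 bases before its start) and on the minus strand for Hspd1 (150 to 121 bases before). In GENCODE M21, of the same assembly, it lies in an exon and UTR of another Hspd1 transcript. The motif searched was GAA, TTC and GAA with 2 free bases between neighbours, on both strands, and each of these windows held 2 overlapping matches. Of all 32851 promoter windows, 0.603% held it. The shorter GAA and TTC pair with 2 free bases between, which this motif contains, was also found in a window of Dnaja1, 124 bases before the start, and occurred in 7.86% of all windows. No window of Dnajb1, Hspa4 or Hsp90b1 held either. The window of Hsp90b1, the chaperone of the endoplasmic reticulum, is shown because it held a match of another kind in 2 places. The ER stress response element, which is CCAAT, 9 free bases and CCACG on either strand, was present in 0.119% of all windows and is in capitals here.

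Hsp90b1: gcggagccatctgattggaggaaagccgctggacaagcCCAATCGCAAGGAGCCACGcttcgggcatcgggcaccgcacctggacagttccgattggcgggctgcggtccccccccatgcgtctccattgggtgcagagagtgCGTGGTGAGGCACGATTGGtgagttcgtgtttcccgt

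This stretch is chr10:86705515-86705694 on the minus strand, 250 to 71 bases before the start, and no GENCODE M21 exon covers it. A match describes the letters and is not evidence of binding.

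The values are log2(TPM + 1), where TPM is a transcript abundance scaled to transcript length and to the total of the cell, which allows levels of different genes to be compared. Read depth is unknown. The median number of genes above 0 per cell was 3248 in prefix 051716, 3679 in 051816 and 3670.5 in the Ski-WT cells. Of the gate markers, Kit was at or above 5 TPM in 38 cells of Ski-KO and 41 of Ski-WT, Ly6a (Sca-1) in 27 and 29, and Slamf1 (Cd150) in only 4 and 7. Cd48 reached 5 TPM in 0 of 46 and 0 of 48 cells, which allows shares of up to 6.52% and 6.25%. Ski itself was at or above this limit in 3 cells of Ski-KO and 6 of Ski-WT, so it does not check the genotype labels. Of 8 listed markers of mast cells, macrophages and stroma none passed the filter on low values, and the median summed TPM of 10 erythroid markers was 0.6, 0.51 and 0.065 in the prefixes. The mean sums were 208, 63.3 and 66.2 TPM, and the globin gene Hbb-b2 was at or above 5 TPM in 10 of 27, 3 of 19 and 7 of 48 cells. Of 11 listed myeloid markers, 5, among them Mpo and Elane, reached 5 TPM in no cell. Lyz2 was at or above this limit in 28 cells of each genotype, and Prtn3 in 24 of Ski-KO and 33 of Ski-WT. The part of these transcripts in the results was not tested. Ski-KO cell 6, of prefix 051716, stood apart from the others. It had 2326 genes above 0, the fewest of all, and Rps3 at 2.15, whereas every other cell had Rps3 at 9.26 or more. Results that rest on this cell are given with and without it, a choice made after its values were seen.

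The genes covered a wide range of levels. In the Ski-WT cells mean expression was 5072 TPM for Hspa8, the constitutive Hsp70, and 3532 TPM for Hsp90ab1, the constitutive Hsp90. Hspa8 ranked 15th of all genes and Hsp90ab1 30th, and the pair made up 80.3% of the summed TPM of the 10 members. Hsp90aa1, the inducible Hsp90, followed at 876 TPM. Dnaja1 (314 TPM), Hspe1 (281 TPM), Hspd1 (272 TPM) and Hsp90b1 (193 TPM) formed a middle group. Hspa9, the mitochondrial Hsp70, had 88.4 TPM, Dnajb1 67.7 TPM and Hspa4 19.8 TPM. On the log2 scale the order of means was the same except that Hsp90b1 (5.65) came before Hspd1 (5.09). Only the step from Hsp90ab1 (11.51 ± 0.93, SD over 48 cells) to Hsp90aa1 (9.28 ± 1.63) was larger than the SD of both neighbours, and every other pair of neighbours in the order differed by less than the SD of at least 1 of the genes. The 10 members together took a median of 1.01% of all TPM in a Ski-WT cell, 0.877% in a cell of prefix 051716 and 0.800% in one of prefix 051816.

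**Figure D1:**
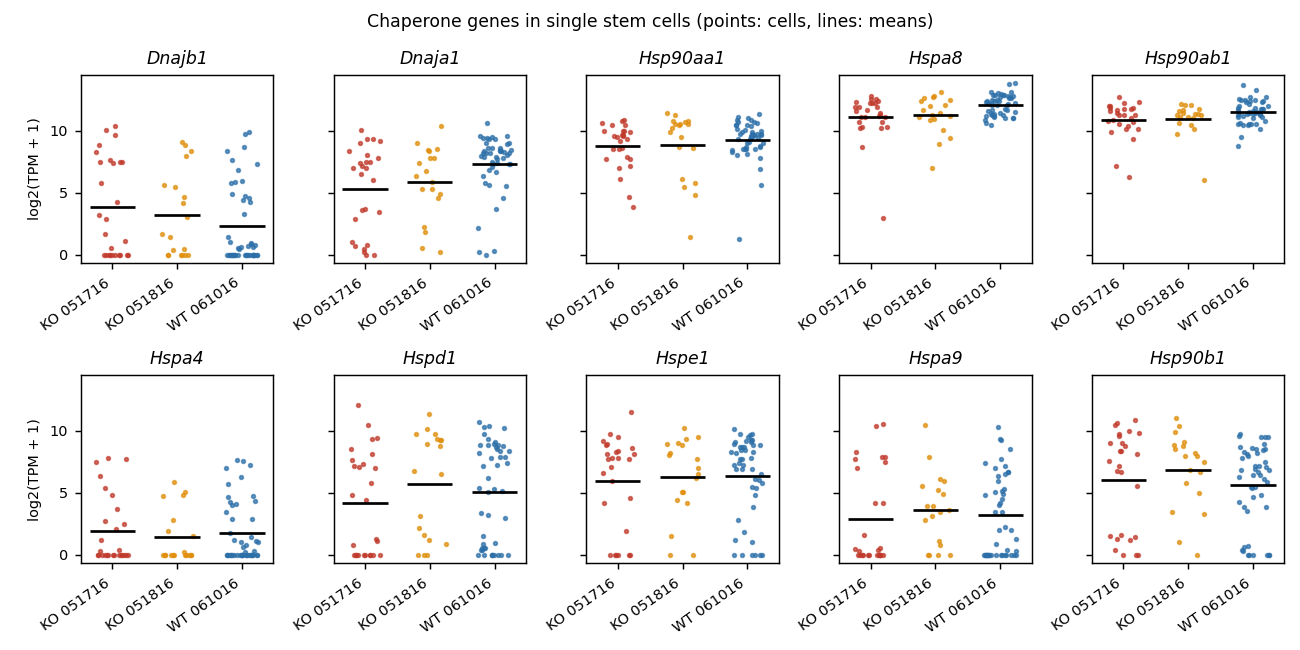
Expression of the 10 chaperone genes in each cell, with log2(TPM + 1) drawn vertically and the 3 label prefixes side by side. Points are cells and black lines are means. Hspa8 and Hsp90ab1 lay high in almost every cell, with a Ski-KO cell at 2.94 for Hspa8, while Dnajb1, Hspa9 and Hspa4 were at 0 in many cells of each prefix.

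Detection separated the members as sharply as level did. Hspa8 and Hsp90ab1 were at 5 TPM or more in all 94 cells, and Hsp90aa1 in 45 of 46 Ski-KO and 47 of 48 Ski-WT cells. Hspa4 was the least often found, in 13 Ski-KO cells (28.3%, exact 95% interval 15.99% to 43.5%) and 15 Ski-WT cells (31.2%, 18.7% to 46.3%). These intervals cover counting error only. The median cell held 7 members at 5 TPM or more in prefix 051716, 8 in 051816 and 7.5 in the Ski-WT cells, and just 1 Ski-KO and 1 Ski-WT cell held all 10. In the Ski-WT cells the SD of log2(TPM + 1) was 0.81 for Hspa8 and 0.93 for Hsp90ab1. It was 3.95 for Hspd1, 3.29 for Hspa9, 3.27 for Hspe1, 3.23 for Hsp90b1 and 3.15 for Dnajb1, and 2.48 for the rarely found Hspa4.

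**Figure D2:**
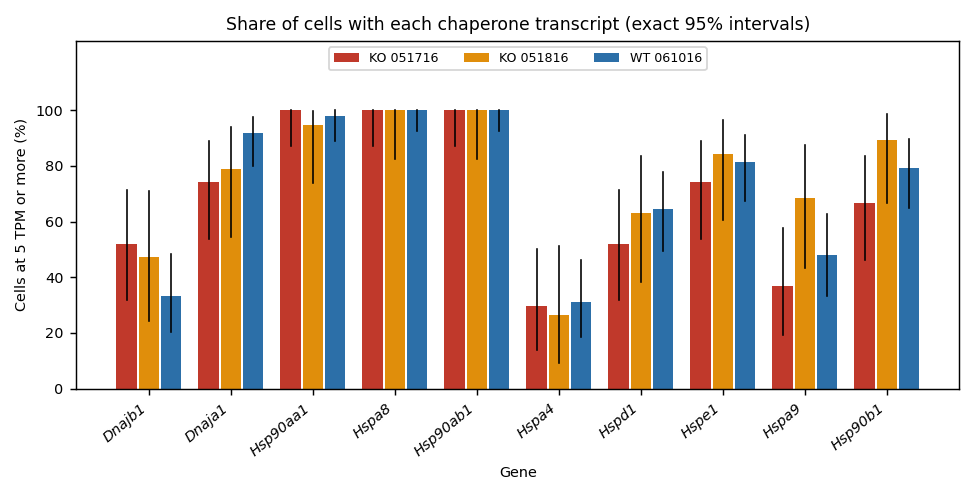
Share of cells at 5 TPM or more (vertical axis, percent) for each chaperone gene (horizontal axis) and label prefix. Bars are shares and black lines are exact 95% binomial intervals, which cover counting error only. Hspa8 and Hsp90ab1 reached 100% in all prefixes, and Dnajb1 stood at 51.9%, 47.4% and 33.3%.

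Between genotypes the chaperones differed in both directions. A difference is the Ski-KO mean of log2(TPM + 1) less the Ski-WT mean. The added 1 shrinks differences between low values, and the result can depart from the change in mean TPM in size or direction. Genes were kept if 25% or more of either genotype's cells had a value above 0, and over these 6240 genes the median was -0.22, so a difference near that value is the general level. All 10 members passed this filter. Hspa8, Hsp90ab1 and Dnaja1 were lower by 0.5 or more in both Ski-KO prefixes, 3 of 10 members, against 17.9% of all genes. Dnajb1 was higher by 0.5 or more in both, 1 of 10, against 3.75% of all genes. With Ski-KO cell 6 left out, Hsp90b1 joined Dnajb1 as higher and the 3 lower members stayed (all genes 4.19% higher and 17.6% lower). Without cells of fewer than 3000 genes above 0, the lower members were Hspa8 and Dnaja1 and the higher ones Dnajb1 and Hsp90b1, against 14.2% and 6.13% of all genes. The median difference over the 10 members was -0.28.

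**Figure D3:**
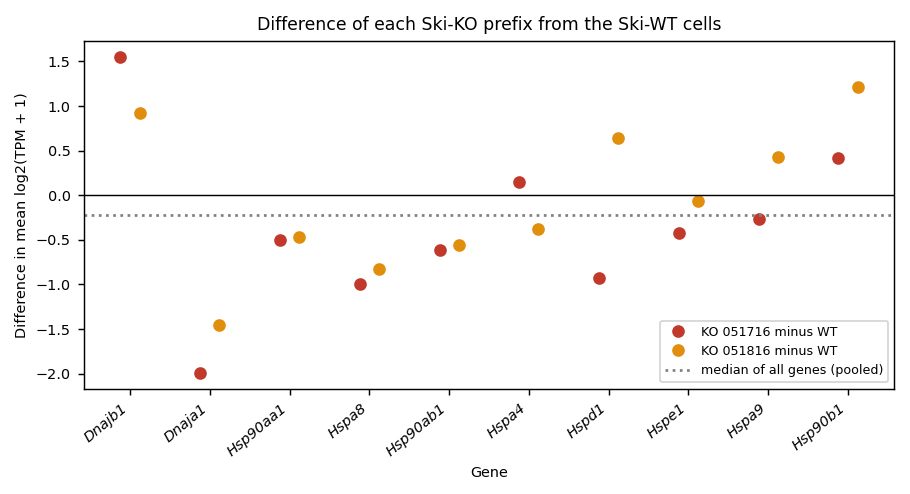
Difference in mean log2(TPM + 1) of each Ski-KO prefix from the Ski-WT cells (vertical axis) for the 10 chaperone genes (horizontal axis). Red points are prefix 051716, orange points prefix 051816, and the dotted line is the median over 6240 genes, -0.22. Dnajb1 and Hsp90b1 lie above 0 for both prefixes, and Dnaja1, Hspa8, Hsp90ab1 and Hsp90aa1 below it for both.

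Dnajb1, an inducible J protein that activates cytosolic Hsp70, was higher in the cells labelled Ski-KO. Its values ran from 0 through a median of 2.84 to 10.36 in prefix 051716, from 0 through 1.68 to 9.07 in prefix 051816, and from 0 through 0.58 to 9.87 in the Ski-WT cells. The ranges overlapped almost entirely, and cells at 0 made up 10 of 27, 6 of 19 and 22 of 48. Of the Ski-KO cells 23 held Dnajb1 at the 5 TPM limit or above (50%, interval 34.9% to 65.1%), and of the Ski-WT cells 16 (33.3%, 20.4% to 48.4%), so the intervals overlap. Mean level was 143 TPM for Ski-KO and 67.7 TPM for Ski-WT, 2.11-fold higher in the former. The log2 difference was 1.29, with 1.55 in prefix 051716 and 0.92 in prefix 051816. Among cells at 5 TPM or more the median was 7.47 in prefix 051716, 5.62 in 051816 and 5.91 in the Ski-WT cells, so a higher level per expressing cell was seen only in the first of these prefixes, without a test. Of 15 immediate early genes past the filter 5 were higher and 2 lower in both prefixes, against 18.5% and 44.3% of all genes. The summed level of the 21 in the table had a median of 4523 TPM (range 0 to 14215) in prefix 051716. This median was 2517 TPM (27.2 to 6407) in prefix 051816 and 2730 TPM (318 to 7523) in the Ski-WT cells. Within prefixes the correlation of Dnajb1 with the mean of the 15 immediate early genes that passed the filter was 0.23, 0.02 and 0.17, and the part of these genes in the Dnajb1 difference was not tested.

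Dnaja1, the J protein that also serves Hsp70 in the cytosol, went the other way. Its values had a median of 6.96 (range 0 to 10.01) in prefix 051716, 6.35 (0.16 to 10.36) in prefix 051816 and 8.10 (0 to 10.64) in the Ski-WT cells. Of the Ski-KO cells, 35 of 46 lay below the Ski-WT median, although no Ski-KO cell lay outside the Ski-WT range. The 5 TPM limit was reached by Dnaja1 in 35 cells of Ski-KO (76.1%, interval 61.2% to 87.4%) and 44 of Ski-WT (91.7%, 80.02% to 97.7%). The log2 difference was -1.77, with -1.99 and -1.46 in the Ski-KO prefixes, while mean TPM differed less, at 199 and 314 TPM (log2 ratio -0.66). Within prefixes Dnaja1 correlated with the number of genes above 0 at 0.28, 0.67 and 0.27. With that number as a covariate the difference was -1.34, and without cells of fewer than 3000 genes above 0 it was -1.17. The Dnaja1 level minus that of Dnajb1 in the same cell averaged 5.02 in the Ski-WT cells and 1.96 in the Ski-KO cells. In single cells Dnaja1 was above Dnajb1 in 39 of 48 cells of Ski-WT and 31 of 46 of Ski-KO.

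Hsp90aa1, the inducible cytosolic Hsp90, had a median of 9.47 (range 3.84 to 10.82) in prefix 051716, 10.20 (1.38 to 11.43) in prefix 051816 and 9.59 (1.26 to 11.37) in the Ski-WT cells. The difference of means was -0.49, yet the medians of prefix 051816 and of the Ski-WT cells stood in the opposite order. Linear means were nearly the same, 850 and 876 TPM. Without cells of fewer than 3000 genes above 0 the difference was 0.08, so no direction is given for Hsp90aa1.

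Hspa8, the constitutive Hsp70 that folds new proteins and uncoats clathrin vesicles, was lower in both Ski-KO prefixes. Its values had a median of 11.44 (range 2.94 to 12.77) in prefix 051716, 11.45 (6.97 to 13.08) in prefix 051816 and 12.18 (10.47 to 13.83) in the Ski-WT cells. In all, 10 of 46 Ski-KO cells, 6 of prefix 051716 and 4 of prefix 051816, lay below the lowest Ski-WT cell, and none lay above the highest. Mean level was 3306 TPM for Ski-KO and 5072 TPM for Ski-WT, 1.53-fold higher in the latter. The log2 difference was -0.92, with -0.99 and -0.83 in the prefixes, and -0.74 with Ski-KO cell 6 left out. Taking off the median gene it was -0.71. Of the 103 genes with a Ski-WT mean of at least 10 on the log2 scale, Hspa8 had the third lowest difference, and the median of those genes was 0.01, so genes of such level were not lower in general. Within prefixes Hspa8 correlated with the number of genes above 0 at 0.38, 0.26 and 0.28, and with that number as a covariate the difference was -0.75.

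The spread of Hspa8 was also larger in the Ski-KO cells, though in prefix 051716 largely through Ski-KO cell 6. The SD was 1.88 in prefix 051716, 1.54 in prefix 051816 and 0.81 in the Ski-WT cells, and without that cell the value for prefix 051716 was 0.96. The next lowest cell of the prefix was at 8.70. With all cells kept, the median SD of the 103 high genes was 0.996, 0.97 and 0.79 in the same order.

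Hsp90ab1, the constitutive Hsp90, also had lower means in both Ski-KO prefixes, by less than Hspa8. Its median was 11.25 (range 6.27 to 12.73) in prefix 051716, 11.24 (6.02 to 12.16) in prefix 051816 and 11.46 (8.72 to 13.70) in the Ski-WT cells. Only 3 Ski-KO cells lay below the lowest Ski-WT cell, and 1 of them was also below it for Hspa8. Mean level was 2537 TPM against 3532 TPM, and the log2 difference was -0.59, with -0.62 and -0.56 in the prefixes. The median over cells differed by only -0.21, and without cells of fewer than 3000 genes above 0 the difference was -0.26, near the median gene of -0.12 in that set. Ski-KO cell 6, lowest of all for Hspa8, had the highest Hsp90ab1 value of its prefix, 12.73. Over all cells with prefix means taken off, Hsp90ab1 correlated with Hspa8 at -0.01, and at 0.13 without Ski-KO cell 6.

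Hspa4, an exchange factor for Hsp70, was scarce in every prefix. Its median was 0 in both Ski-KO prefixes and 0.25 in the Ski-WT cells, with highest values of 7.78, 5.89 and 7.69. The difference was 0.15 in prefix 051716 and -0.38 in prefix 051816. No direction can be given.

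**Figure D4:**
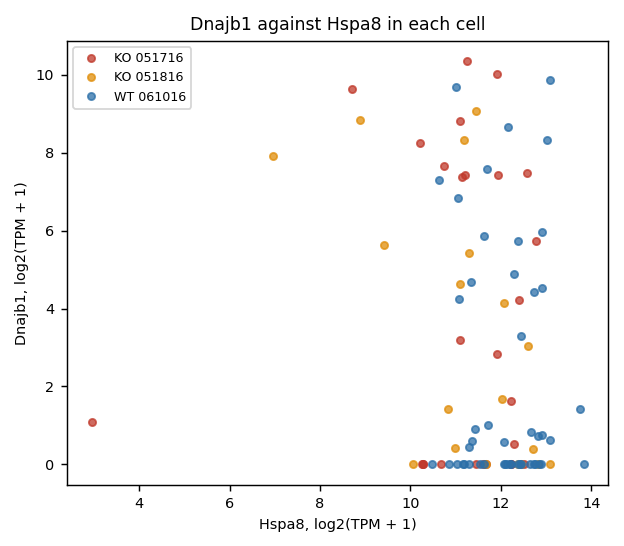
Dnajb1 (vertical axis) against Hspa8 (horizontal axis) in each cell, both as log2(TPM + 1), coloured by label prefix. The point at the far left is Ski-KO cell 6, with Hspa8 at 2.94 and Dnajb1 at 1.09. The Ski-WT cells lay at 10.47 or more for Hspa8, while 10 Ski-KO cells lay below that.

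Dnajb1 and Hspa8 therefore differed in opposite directions in both Ski-KO prefixes, a contrast that the choice of this pair already rested on and that is given as a description. The level of Dnajb1 minus that of Hspa8 in the same cell averaged -7.25 ± 4.30 (SD over 27 cells) in prefix 051716, -8.05 ± 4.52 (19 cells) in prefix 051816 and -9.80 ± 3.29 (48 cells) in the Ski-WT cells. Dnajb1 exceeded Hspa8 in 2 Ski-KO cells and in 0 Ski-WT cells. The difference between genotypes in this quantity was 2.22, with 2.55 and 1.75 in the prefixes and 2.09 without Ski-KO cell 6. Cell by cell the genes were not tied alike in all prefixes. Their correlation was 0.03 in prefix 051716, -0.59 in prefix 051816 and -0.05 in the Ski-WT cells. Over all cells with prefix means taken off it was -0.13, and -0.24 without Ski-KO cell 6.

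As classes of 3 genes, inducible and constitutive members gave a small difference between genotypes that depended on which genes were included. The mean of the 3 inducible members was 5.97 in the Ski-KO cells and 6.29 in the Ski-WT cells, and that of the 3 constitutive members 7.94 and 8.46. The inducible mean minus the constitutive mean averaged -2.00 ± 1.82 in prefix 051716, -1.92 ± 2.37 in prefix 051816 and -2.17 ± 1.81 in the Ski-WT cells (SD over cells). These SDs describe single cells and do not measure the error of a difference of means. The genotypes differed by 0.21 in the inducible mean minus the constitutive mean. Without Dnaja1 and Hspa4 the value was 1.16, and Dnaja1 (-1.77) and Dnajb1 (1.29) differed in opposite directions within the inducible group. Hsp90aa1 minus Hsp90ab1, the inducible against the constitutive Hsp90, averaged -2.13 in the Ski-KO and -2.23 in the Ski-WT cells.

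The mitochondrial members gave no common direction. Hspd1 had a median of 4.42 (range 0 to 12.06) in prefix 051716, 6.75 (0 to 11.36) in prefix 051816 and 5.80 (0 to 10.69) in the Ski-WT cells. Its difference was -0.93 in the first Ski-KO prefix and 0.64 in the second. The highest Hspd1 value of all was that of Ski-KO cell 6, and without this cell mean Hspd1 expression in prefix 051716 was 167 TPM in place of 319 TPM and the difference -1.23. Hspe1 had medians of 7.76 (0 to 11.52), 6.998 (0 to 10.24) and 7.56 (0 to 10.19) and differences of -0.42 and -0.06. Hspa9, which imports and folds mitochondrial proteins, had medians of 0.39 (0 to 10.53), 3.59 (0 to 10.45) and 2.13 (0 to 10.31) and differences of -0.26 and 0.43. Hspa9 was at 5 TPM or more in 10 of 27 cells of prefix 051716 (37.04%, interval 19.4% to 57.6%) and 13 of 19 of prefix 051816 (68.4%, 43.4% to 87.4%), which carry the same genotype label. At a limit of 20 TPM these shares were 29.6% and 36.8%. Mean Hspa9 expression stood the other way, at 154 TPM in prefix 051716 and 103 TPM in prefix 051816.

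Hspd1 and Hspe1, whose products act as chamber and lid, were examined together because of the promoter region printed above. Both were at 5 TPM or more in 46 of the 94 cells, Hspd1 alone in 11, Hspe1 alone in 29 and neither in 8. Hspe1 was found in 80.7% of cells with Hspd1 and in 78.4% of cells without it. By prefix these shares were 57.1% and 92.3% in 051716, 91.7% and 71.4% in 051816, and 87.1% and 70.6% in the Ski-WT cells. Their correlation over all cells with prefix means taken off was -0.02, and it was -0.35, 0.13 and 0.14 in the prefixes. Without Ski-KO cell 6, in which Hspd1 was at 12.06 and Hspe1 at 0, the value over all cells was 0.02. The prefixes thus differed in direction, and no common relation is given. The labels do not say how reads shared with pseudogenes were assigned, and GENCODE lists pseudogenes of Hspd1, Hspe1, Hspa9 and Dnaja1, so the levels of these genes carry that uncertainty.

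Hsp90b1, the Hsp90 of the endoplasmic reticulum, folds receptors and integrins for the cell surface. It had a median of 7.56 (range 0 to 10.89) in prefix 051716, 7.97 (0 to 11.04) in prefix 051816 and 6.56 (0 to 9.78) in the Ski-WT cells. Above the highest Ski-WT cell lay 5 cells of the first and 3 of the second Ski-KO prefix. Mean level was 412 TPM for Ski-KO and 193 TPM for Ski-WT, 2.13-fold higher in the former. The log2 difference was 0.75, with 0.42 and 1.22 in the prefixes, and the first of these was 0.66 without Ski-KO cell 6. The share of cells at 5 TPM or more was 18 of 27 (66.7%) in prefix 051716, 17 of 19 (89.5%) in prefix 051816 and 38 of 48 (79.2%) in the Ski-WT cells, so the Ski-KO prefixes lay on either side. Among cells at this limit or above the median was 8.88 in prefix 051716, 7.99 in 051816 and 7.12 in the Ski-WT cells. Hspa5, its Hsp70 partner, whose window also held the ER stress response element, had a mean of 5.74 for Ski-KO and 5.70 for Ski-WT.

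Across cells the correlations between members were low. Over 45 pairs of members the correlation with prefix means taken off ran from -0.13 to 0.24, with a median of 0.07. Of these pairs 12 were above 0 in each of the 3 prefixes. Pairs of other genes were not counted, so neither figure has a baseline. Every member but Dnajb1 correlated above 0 with the number of genes above 0 in each prefix. The part of this in the pairs was not tested. Without Ski-KO cell 6 the range was -0.24 to 0.25. The genes whose pattern over the 94 cells was most like a member were chosen from 3171 genes at 5 TPM or more in at least 25% of cells, by Pearson correlation with prefix means taken off. As the highest of 3171 values in the same cells, these correlations are raised by the choice itself. No baseline was computed, so they are given as a description only. For Dnajb1 the genes were Tm2d3 (0.44), Ssr4 (0.40) and Fundc2 (0.37). For Hspa8 they were Rps3 (0.56), Rps26 (0.47) and Serf2 (0.40). These values rested on Ski-KO cell 6, without which they were 0.06, -0.16 and 0.22. For Hsp90aa1 they were Vdac1 (0.40), Eif3c (0.39) and Tbcb (0.38), and for Hsp90ab1 Eef1g (0.38), Grcc10 (0.35) and Lsm7 (0.34). Eef1g was at -0.02 within the Ski-WT cells and at 0.43 and 0.68 within the Ski-KO prefixes.

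Heat-shock genes that are nearly silent without stress stayed nearly silent here. Hspa1a and Hspa1b, the strongly inducible Hsp70 genes, reached 5 TPM in 0 of 46 Ski-KO cells, which allows a share of up to 6.52%, and in 2 and 3 of 48 Ski-WT cells. Both are near-identical copies, so their split is uncertain. Hsph1, another inducible exchange factor, was at or above 5 TPM in 8 cells of Ski-KO and 9 of Ski-WT, and Bag3, a co-chaperone of selective autophagy, in 1 and 8. Hsf1, the main heat shock factor, was found in 10 and 10 cells, with mean log2 values of 1.36 and 1.35. Its mean was 59.9 TPM in prefix 051816, 19.02 TPM in prefix 051716 and 20.9 TPM in the Ski-WT cells. Hsf2 was found in 17 and 23 cells and had a log2 difference of -0.71, but its mean TPM stood the other way, at 65.1 for Ski-KO and 44.6 for Ski-WT, so no direction is given. Hspa1a, Hspa1b, Hsph1 and Bag3 belong to a list of 16 stress-induced genes, and 5 of them passed the filter. Of these 2 were higher in both prefixes, among them Fkbp4, an Hsp90 co-chaperone, at 0.22, again against 18.5% of all genes, and 0 were lower in both.

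In the wider chaperone network lower values outnumbered higher ones, as they did over all genes. The 8 lists held 145 genes of the table, of which 103 passed the filter. Of these 45 were lower in both Ski-KO prefixes, or 43.7%, against 44.3% of all genes, and 11 were higher, or 10.7%, against the 18.5% given above. Their median difference was -0.28. Of 23 J proteins, 13 were lower and 5 higher in both prefixes, with Dnajc30 (-1.36) and Dnajc7 (-1.08) lowest and Dnajc6 (0.52) and Dnajc1 (0.37) highest among those that are not members. Mean TPM of Dnajc6 stood the other way, at 5.91 for Ski-KO and 12.2 for Ski-WT. Of 16 Hsp70 family genes and exchange factors, 6 were lower and 1 was higher. Grpel1, the exchange factor of mitochondrial Hsp70, had -1.81 and was at or above 5 TPM in 10 cells of Ski-KO and 22 of Ski-WT. Bag5 had -1.19, and Sil1, the exchange factor of Hspa5, 0.58. Of 26 Hsp90 family genes and co-chaperones, 8 were lower and 3 higher, with Fnip1 at -1.88 and Sugt1 at 0.49.

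**Figure D5:**
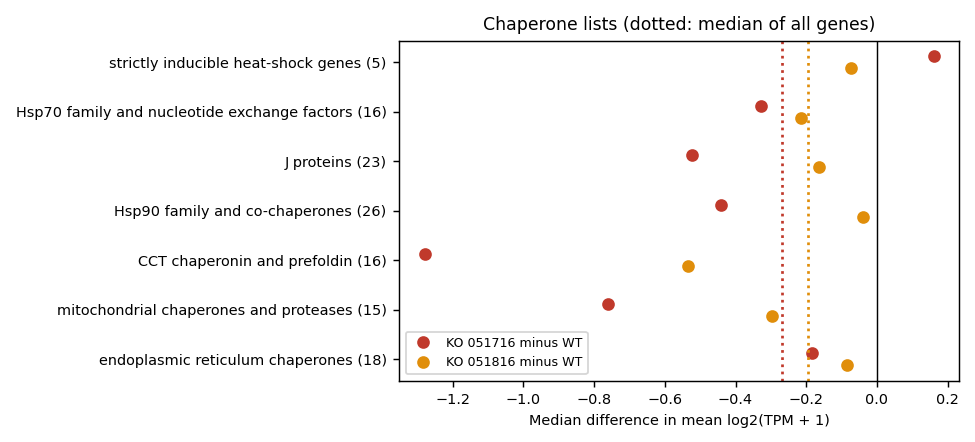
Median difference in mean log2(TPM + 1) from the Ski-WT cells (horizontal axis) for 7 chaperone lists (vertical axis, measured genes in parentheses). Red points are prefix 051716, orange points prefix 051816, and dotted lines are the medians over all genes for each prefix, -0.27 and -0.20. The list of heat shock factors is not drawn. Of the lists drawn, that of the CCT chaperonin and prefoldin has the lowest medians, -1.28 and -0.54.

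The cytosolic chaperonin list had the lowest pooled median of the 8, though in prefix 051816 the list of heat shock factors was lower (-0.60). CCT folds actin and tubulin, and prefoldin delivers them to it. Of 16 measured genes 8 were lower and 1 was higher in both prefixes, with a median of -0.90. Over all genes 44.3% were lower and 18.5% higher in both. The prefixes differed in size, with -1.28 in prefix 051716 and -0.54 in prefix 051816, beside -0.27 and -0.20 over all genes. Of the CCT subunits, all but Cct4 had a pooled difference below 0. Cct7 had -1.97, Cct3 -1.59 and Tcp1 -1.07, lower in both prefixes, and Cct4 had 0.71, higher in both. In Cct2 (-0.23), Cct5 (-1.56), Cct6a (-0.79) and Cct8 (-0.37) the prefixes stood on opposite sides of 0. Cct5 had -2.65 in prefix 051716 and 0.01 in prefix 051816. The SD of Cct3 over cells was 3.72, 4.45 and 4.27 in the prefixes, so unlike differences cannot show that subunits vary apart. Of the other genes on the list, Pdcl (-1.44) and Pfdn5 (-1.18) were lowest. Among 15 mitochondrial chaperones and proteases, 10 were lower (66.7%, against 44.3% of all genes) and 1 was higher in both, with a median of -0.48. Clpp, a matrix protease, had -1.28 and Hscb, a J protein of iron-sulphur cluster assembly, 0.37. Among 18 chaperones of the endoplasmic reticulum, 7 were lower (38.9%) and 2 higher, with a median of -0.07, beside 0.75 for Hsp90b1. Sil1 (0.58) was the other gene higher in both prefixes, and Dnajc3 (-0.74) and Hyou1 (-0.41) were lowest. The summed TPM of the 23 listed genes, Hsp90b1 among them, had higher medians in the Ski-KO prefixes. These were 3991 in prefix 051716 and 4226 in prefix 051816, against 2785 in the Ski-WT cells, and the ranges over cells overlapped.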

How the data were processed

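The authors deposited a table of log2(TPM + 1) values, 1 column per cell, a unit read from the values, since back-transformed values summed to between 997625 and 999995 per cell. SMARTer cDNA and Nextera XT libraries were made from cells captured on a Fluidigm C1 chip, per the labels' protocols. Per the submitters' processing notes, Bowtie2, RSEM and the mm9 build were used, with no version or role stated. TPM values keep no read depth and no molecular identifiers.

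Genotype came from each cell's title and the prefix from its description. With no animal named, each genotype was 1 sample and no test was made. Means, SDs and differences were computed on the deposited log2 scale, shares with exact Clopper-Pearson intervals at 95%. The members, gene lists and pairs were chosen with earlier results of these data known. All members were named, with the 2 highest and 2 lowest other genes of each list by the smaller prefix difference of like sign, and the 3 genes of most like pattern for 4 members. Some genes that this rule names are not reported here. Inducible genes and heat shock factors could also be named for their level. Hspa5 and the CCT subunits other than Cct4 were named after their values were seen. All 94 cells were kept, without calling doublets or assigning types. The code was tested on simulated data. The tools were scipy 1.17.1, pandas 2.3.3, numpy 2.4.6 and matplotlib 3.10.9, under Python 3.11.15.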

Additional observations from a re-analysis of the deposited data

How the results depend on the processing

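No paired analysis was possible because the cell numbers in the titles only count cells within a genotype, and no test was made. The difference of Hspa8 (-0.92) stayed below 0 and that of Dnajb1 (1.29) above 0 in all 11 alternatives, with ranges of -0.99 to -0.62 and 0.80 to 1.73. Hsp90ab1, Dnaja1 and Hsp90b1 also kept their sign in all 11. The sign turned in 1 of 11 for Hsp90aa1, 3 for Hspd1, 3 for Hspe1, 2 for Hspa9 and 6 for Hspa4. Quantile normalization took the median gene from -0.22 to -0.01, and against it Hspa8 stood at -0.91 and Dnajb1 at 1.73. The value of Hspa8 moved by more than the gap between the Ski-KO prefixes with the log2 ratio of mean TPM (-0.62), the median over cells above 0 (-0.74), a covariate for the number of detected genes (-0.75) and without Ski-KO cell 6 (-0.74). The inducible minus constitutive difference (0.21) moved to 0.47 with the log2 ratio of mean TPM, 0.54 after quantile normalization, 0.38 without cells of fewer than 3000 genes above 0 and 1.16 with classes without Dnaja1 and Hspa4. Members higher by 0.5 in both prefixes numbered 2 in place of 1 without Ski-KO cell 6 and without cells of few genes, where lower members numbered 3 and 2. With no filter 17 chaperone genes were higher in both prefixes in place of 11 (11.8%, with 17.97% of all genes), and with a filter of 50% of cells 6 were higher and 26 lower (10% and 43.3%, with 18.1% and 45.4% of all genes). Of 30 shares of cells, 10 lay outside their interval when any value above 0 was counted and 2 at a limit of 20 TPM. The cause of these moves was not tested. The alternatives without Ski-KO cell 6 and without cells of few genes were chosen after seeing the data. Unknown depth keeps absence from being told from loss of a transcript for genes as low as Hspa4.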
